A study of Mus musculus with 17 samples.

Results

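H3K27ac, acetylation of lysine 27 of histone H3, was compared between the 6-OHDA-induced PD model and sham in mouse brain at 11326 promoter regions. They are the regions with a signal of at least 1 in any of the study's groups, out of 11424 in the table, and this rule did not use the difference between lesion and sham. How the authors chose the regions of the table is not given in the sources used here. No region had a signal in the NDST3 column below that of the lesion column (10999 of the 11326 were above it and 327 equal to it), so the table may hold only regions chosen against the lesion column. Whether such a choice moved the lesion to sham ratios was not tested, and values with NDST3 are given below without reading a direction from them. H3K27ac was profiled by CUT&RUN, in which an antibody directs a nuclease to the modified chromatin and the released DNA is sequenced. The animals were ICR mice of WT genotype, 8 weeks old when 6-OHDA (10 µg per µL) was injected on 1 side into the substantia nigra, and the sham group was labelled Sham-control. Mice of the NDST3-treated PD model carried the same lesion and received 2 µL of NDST3 into the substantia nigra 5 days later, where the lesioned mice received saline. The paper's methods describe an adeno-associated virus expressing human NDST3 and a lentivirus with NDST3. They do not name the vector of these injections. Each group had 2 CUT&RUN libraries, so that 4 of the 17 libraries of the series bear on this comparison, and the table gives 1 value per region for the 2 libraries of a group together. A difference between groups therefore had no replicate error here and was not tested, and neither the number of mice behind a library nor the depth of a library is known. A region was called raised or lowered where the ratio of the 6-OHDA to the sham signal, after adding 1 to each, was at least 2-fold, which describes these pooled columns.

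H3K27ac is laid down by the acetyltransferases p300 and CBP, removed by histone deacetylases, and read by bromodomain proteins. It marks active promoters and enhancers, usually on the nucleosomes that flank a start site. 6-OHDA is a dopamine analogue taken up by dopaminergic neurons, which it kills by oxidative damage, and the injury is followed by activation of microglia and astrocytes. In bulk brain a lower signal can come from fewer cells of a type or from less acetylation per cell, and these cannot be told apart. The labelled tissue, brain, was set beside marker genes. Of 19 dopaminergic neuron markers, including Th, Slc6a3 and Pitx3, none had an H3K27ac region, and neither did any of 15 markers of homeostatic microglia, whereas 8 of 22 pan-neuronal, 2 of 17 astrocyte and 1 of 16 oligodendrocyte lineage markers did. Of all genes tested in RNA-seq 34.7% had a region, a share that the pan-neuronal markers (36.4%) came near and the glial ones lay below. These shares were not matched for RNA level. In the quintile of genes with the highest RNA in sham, 48.1% had a region, above the share of the pan-neuronal markers. Brain endothelial markers had 2 of 13, and mural cell and fibroblast, monocyte to neutrophil and lymphocyte markers none. These counts do not tell the tissue. RNA of all 19 dopaminergic markers was measured in the same study. It was lower after the lesion for 17 of them, against 17.1% of all genes tested (edgeR, adjusted p under 0.05). The regions thus say nothing of H3K27ac at the genes that define the lesioned cells.

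Region centres lay at positions -1000 to 943 from the start site that the table assigns, 8109 of 11326 were 100 bases long, and the longest was 418. They were assigned to 7204 genes. The promoters of the genes at both ends of the comparison are given from RefSeq (GRCm38.p6), from 250 bases before the start site to 50 after it. They are the first 4 genes with a sequence in each direction when genes were ranked by their ratio. Capitals mark matches, on either strand, to a CCAAT box (CCAAT), an ETS site (CCGGAAG), a cyclic AMP response element (TGACGTCA), an E-box (CACGTG), an AP-1 site (TGANTCA), a GC box (GGGCGG) or a TATA box (TATAAA), where neighbouring matches can overlap. The promoters of the 4 genes with the largest rises read as follows.
Bzw1, chr1:58392648-58392947, strand +: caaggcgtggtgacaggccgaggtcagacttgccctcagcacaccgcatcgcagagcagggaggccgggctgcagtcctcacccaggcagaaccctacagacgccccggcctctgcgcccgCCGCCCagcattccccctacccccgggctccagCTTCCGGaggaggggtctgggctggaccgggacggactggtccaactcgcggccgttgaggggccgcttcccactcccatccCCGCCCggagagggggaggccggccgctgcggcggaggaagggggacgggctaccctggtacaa
Mrps36, chr13:100744610-100744909, strand -: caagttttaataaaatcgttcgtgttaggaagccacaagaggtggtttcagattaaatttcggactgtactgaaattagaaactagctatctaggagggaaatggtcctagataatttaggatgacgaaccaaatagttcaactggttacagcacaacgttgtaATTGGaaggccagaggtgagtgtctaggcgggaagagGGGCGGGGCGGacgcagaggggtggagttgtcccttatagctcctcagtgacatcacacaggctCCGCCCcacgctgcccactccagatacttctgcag
C1qtnf7, chr5:43515319-43515618, strand +: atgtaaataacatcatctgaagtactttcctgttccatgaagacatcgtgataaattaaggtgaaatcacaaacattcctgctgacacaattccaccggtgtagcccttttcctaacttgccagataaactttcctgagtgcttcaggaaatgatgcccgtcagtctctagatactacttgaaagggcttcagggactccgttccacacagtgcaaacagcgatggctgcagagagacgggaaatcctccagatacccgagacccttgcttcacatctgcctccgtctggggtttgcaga
Parp11, chr6:127446590-127446889, strand +: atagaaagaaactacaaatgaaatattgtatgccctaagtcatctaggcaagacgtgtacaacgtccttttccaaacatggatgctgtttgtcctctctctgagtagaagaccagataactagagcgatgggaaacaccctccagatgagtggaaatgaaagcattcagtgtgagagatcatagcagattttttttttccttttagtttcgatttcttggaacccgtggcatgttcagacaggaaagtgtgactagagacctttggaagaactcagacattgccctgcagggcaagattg

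Bzw1 had 72.0% G and C with 25 CpG, an ETS site and 2 GC boxes, and Mrps36 had 48.3% with 11 CpG, a CCAAT box and 3 GC boxes. C1qtnf7 (46.7%, 8 CpG) and Parp11 (42.0%, 5 CpG) matched none of the motifs. The H3K27ac regions of these genes were centred, by the table, at position -155 from the start site for Bzw1, -8 for Parp11, 34 for Mrps36 and 65 for C1qtnf7. RefSeq lists 2 starts for Parp11, of which the first is printed. The promoters at the other end are given in the same way.
Gm11186, chr11:53120007-53120306, strand -: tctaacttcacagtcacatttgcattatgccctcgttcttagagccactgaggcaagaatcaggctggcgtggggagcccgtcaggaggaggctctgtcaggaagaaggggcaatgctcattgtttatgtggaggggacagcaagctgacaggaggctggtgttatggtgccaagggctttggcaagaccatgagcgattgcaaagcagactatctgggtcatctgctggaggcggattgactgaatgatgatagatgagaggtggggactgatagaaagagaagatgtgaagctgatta
Gm33035, chr10:69033839-69034138, strand -: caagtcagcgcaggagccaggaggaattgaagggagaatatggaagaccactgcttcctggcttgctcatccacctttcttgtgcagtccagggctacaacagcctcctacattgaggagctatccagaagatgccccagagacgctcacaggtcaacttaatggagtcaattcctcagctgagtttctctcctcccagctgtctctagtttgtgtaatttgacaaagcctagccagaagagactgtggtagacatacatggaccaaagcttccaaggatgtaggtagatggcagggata
Gm3411, chr14:6287201-6287500, strand -: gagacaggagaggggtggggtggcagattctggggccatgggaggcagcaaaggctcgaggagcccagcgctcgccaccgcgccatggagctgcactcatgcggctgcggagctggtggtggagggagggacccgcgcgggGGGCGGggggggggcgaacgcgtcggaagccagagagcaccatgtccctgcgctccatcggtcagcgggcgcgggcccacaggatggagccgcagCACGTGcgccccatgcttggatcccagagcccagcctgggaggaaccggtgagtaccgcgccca
Gpr6, chr10:41072241-41072540, strand -: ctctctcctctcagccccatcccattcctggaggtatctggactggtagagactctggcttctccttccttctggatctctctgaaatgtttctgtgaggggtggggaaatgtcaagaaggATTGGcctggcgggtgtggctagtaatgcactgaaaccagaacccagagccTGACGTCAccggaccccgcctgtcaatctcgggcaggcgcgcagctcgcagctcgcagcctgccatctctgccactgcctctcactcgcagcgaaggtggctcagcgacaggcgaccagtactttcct

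Gm11186 (51.0%, 5 CpG) and Gm33035 (49.7%, 2 CpG), both predicted genes, matched none of the motifs. Gm3411 (71.7%, 26 CpG) held an E-box and a GC box, and Gpr6 (58.7%, 13 CpG) a CCAAT box and a cyclic AMP response element. The H3K27ac regions of these genes were centred at position -22 for Gm11186, -214 for Gm3411, -628 for Gpr6 and -824 for Gm33035. By these positions the regions of Gpr6 and Gm33035 lay outside the sequence printed, and that of C1qtnf7 was centred past its end. The promoters printed thus included both CpG-rich and CpG-poor sequence at each end.

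Over all 11326 regions the signal was slightly higher after the lesion. The median signal was 15.035 in sham, 16.4 after the lesion, and 22.93 with NDST3. The log2 ratio of lesion to sham had a median of 0.13, quartiles of -0.29 and 0.53 and an SD over regions of 0.65, and 57.88% of regions were higher. At 2-fold 880 regions (7.77% of those compared) were raised and 512 (4.52%) were lowered, in 825 and 490 genes. With the columns scaled to the same total, which moved the median of all regions by -0.11 on the log2 scale, the counts were 641 (5.66%) and 650 (5.74%). Raised regions were 63.2% of those called as deposited, 49.7% at the same total and 45.9% when the ratios were centred on their median. The authors' scaling is not stated, so the excess of raised over lowered regions rested on a scale that cannot be checked here. The columns also differed in how finely they were written, since 100% of lesion values were multiples of 0.05 against 22.1% in sham and 26.1% with NDST3. Whether sham and NDST3 were each scaled against the lesion column separately is unknown, and their values may not share 1 scale. The calls closest to the threshold had log2 ratios of 1 and -1 inside it, and 0.9985 and -0.9966 outside it.

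**Figure D1:**
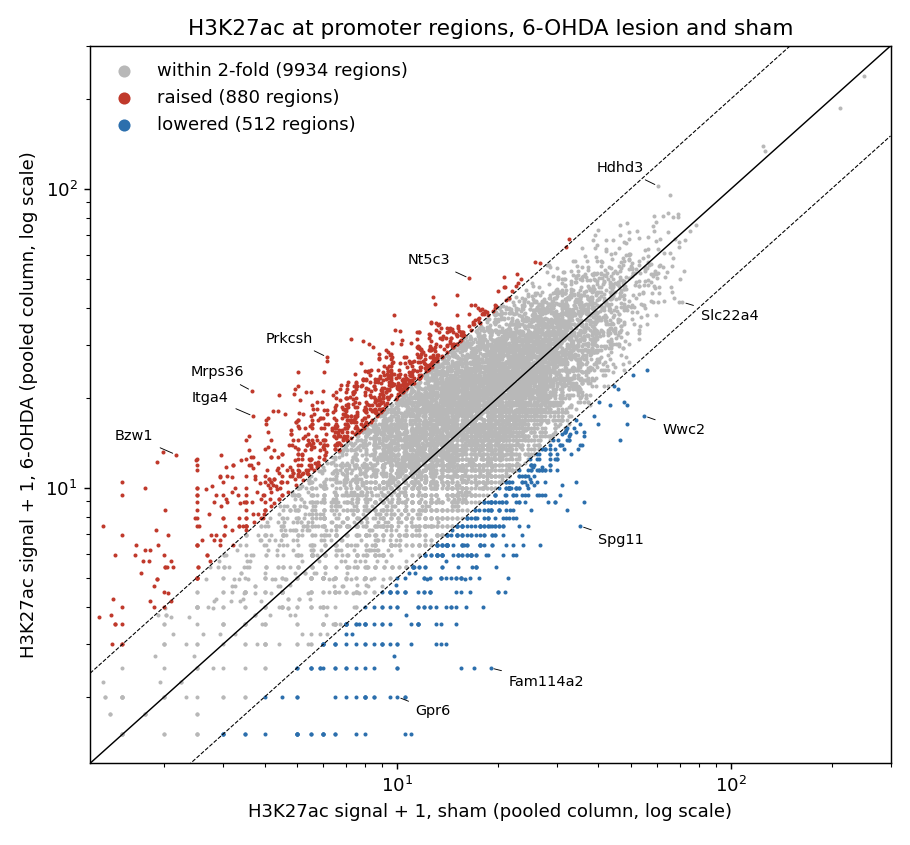
H3K27ac signal + 1 at each of 11326 regions in sham (x axis) and the 6-OHDA-induced PD model (y axis), both on log scales, with equality as a solid line and 2-fold as dashed lines. Red and blue points are the 880 raised and 512 lowered regions, and the cloud narrows toward high signal.

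Called regions came mostly from those of low signal. The SD of the log2 ratio was 0.84 in the lowest quintile of mean signal and 0.45 in the highest, and raised regions were 14% of the lowest quintile against 2.08% of the highest, lowered ones 9.93% against 0.751%. The raised regions started low, with a median of 6.455 in sham (quartiles 3.92 and 9.485) and 17.4 after the lesion, close to the 16.9 that regions within 2-fold had after the lesion. The lowered regions had a median of 15.645 in sham, close to the 15.78 of regions within 2-fold, and 5.45 after the lesion. A call by ratio itself favours low sham values among raised regions and low lesion values among lowered ones. These medians are thus partly set by the rule. In the column of the NDST3-treated PD model the medians were 26.435 for raised, 11.47 for lowered and 23.37 for all regions within 2-fold. Before the filter, 466 of 11424 regions held multiples of 0.5 in all 3 columns with a lesion value of at most 4.0. Of these 162 were lowered, out of the 512 lowered regions, and 10 were raised, out of 880. The usual lowest value was 0.5, and 98 regions at 0.5 in all columns, which are among the 466, were left out of the comparison.

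Distance from the start site moved with the signal. Regions up to 250 bases upstream, where the nucleosome-poor part of a promoter usually lies, had medians of 12.94 in sham and 13.9 after the lesion, against 16.07 and 17.4 at all other regions. Lowered regions were 6.24% of the former and 3.64% of the latter, and raised ones 8.06% and 7.62%. The share of lowered regions was highest between 250 and 100 bases upstream, at 6.34%, and lowest between 100 and 250 bases downstream, at 1.92% (9 of 468 regions).

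**Figure D2:**
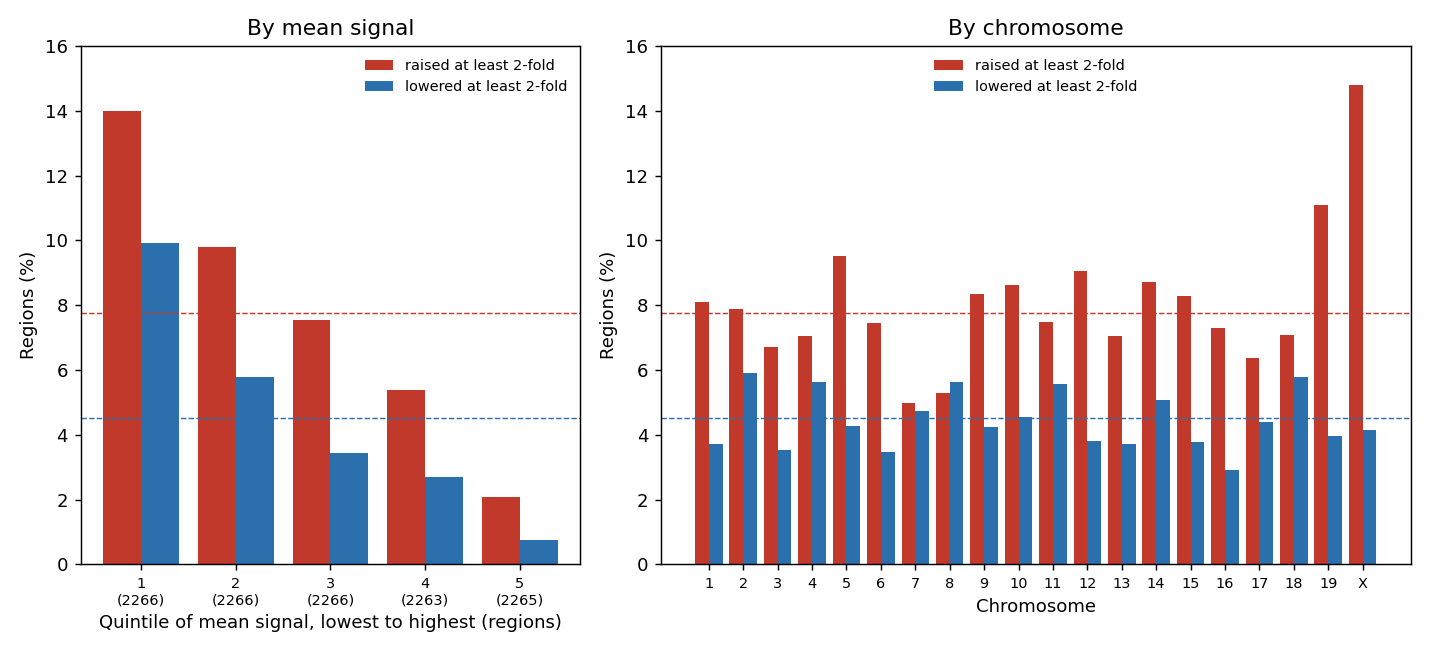
Share of regions raised (red) or lowered (blue) at least 2-fold after the lesion, in percent, by quintile of mean signal with the number of regions (left) and by chromosome (right). Dashed lines are the shares over all regions, 7.77% and 4.52%; the lowest quintile and chromosome X (14.8% raised) stand highest.

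The largest rises by ratio were at promoters with little signal in sham, which a ranking by ratio favours. Bzw1, a regulator of translation start, had the largest ratio among genes with at least 1 in both columns, at chr1:58431852-58431952 in the table's coordinates. Scaffold names among these coordinates are those of GRCm39. The start sites they imply mostly differ from those of GRCm38, the build of the promoters above. The signal of Bzw1 was 1.17 in sham, 11.9 after the lesion and 69.7 with NDST3, a log2 ratio of 2.57. Its RNA was 167.2 and 177.7 CPM, counts scaled to library size, in the 2 sham libraries and 270.3 CPM in the 6-OHDA library, a log2 fold change of 0.65 (SE 0.13, edgeR adjusted p = 0.020). Mrps36, which links subunits of the oxoglutarate dehydrogenase complex, went from 2.66 to 20.1 at chr13:100881083-100881183, while its RNA was 19.86 and 19.7 CPM in sham and 18.9 CPM after the lesion. C1qtnf7, a secreted protein of the C1q and TNF family, had 1.49 and 11.4, and Parp11, an ADP-ribosyltransferase, 1.51 and 11.45. RNA of neither passed the test (edgeR adjusted p = 0.056 and 0.13).

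Itga4, the alpha 4 integrin subunit by which leukocytes adhere to vessels, had 2.7 in sham and 16.35 after the lesion at chr2:79085448-79085548, and 47.13 with NDST3. Its RNA was 5.669 and 3.997 CPM in sham and 18.78 CPM after the lesion, where the libraries of sham lay clearly below the single lesion library (log2 fold change 1.96, SE 0.37, edgeR adjusted p = 0.017). Chpt1, which makes phosphatidylcholine, had signals of 1.95 and 11.9 and RNA of 115.1 and 105.9 CPM in sham and 180.9 CPM after the lesion (log2 fold change 0.71, SE 0.11, edgeR adjusted p = 0.012). Thus 3 of the 12 genes with the largest rises had higher RNA by the test, against 18.8% of all genes tested, and none had lower RNA.

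The other 6 genes were Tada3, Zbed6, Nemf, Htr6, Prkcsh and Fam229b, with sham signals from 1.51 to 5.15 and lesion signals from 10.45 to 26.35. Tada3 is a subunit of histone acetyltransferase complexes, and its region, 126 bases long and at position 413, had 4.03 and 23.35. Prkcsh, a subunit of the glucosidase that trims glycoproteins in the endoplasmic reticulum, had 5.15 and 26.35, and Htr6, a serotonin receptor, 1.51 and 10.45.

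The largest falls by ratio were at regions with little signal left after the lesion, which the same ranking favours. Fam114a2 had 18 in sham, 1.5 after the lesion and 8.0 with NDST3 at chr11:57409363-57409463, a log2 ratio of -2.93. RNA of this gene was 27.41 and 29.71 CPM in sham and 37.76 CPM after the lesion (edgeR adjusted p = 0.061). Gpr6, an orphan receptor of striatal neurons that project to the pallidum, had 9.0 and 1.0 at chr10:40948864-40948964. Its RNA was 1.825 and 1.781 CPM in sham, 0.3679 CPM after the lesion and 1.915 and 1.022 CPM with NDST3. The lesion library lay below both sham libraries (log2 fold change -2.29, SE 0.56, edgeR adjusted p = 0.033). Cdk10, a cyclin-dependent kinase, had 20 and 3.5, and its RNA was 36.01 and 37.09 CPM in sham against 25.93 CPM (log2 fold change -0.50, SE 0.12, edgeR adjusted p = 0.029).

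At Gpr6 and Cdk10 RNA was thus lower by the test, against 17.1% of all genes tested. RNA of Gm11186 and Gm33035 was not tested. At 2 of the 12 genes RNA was higher by the test, against 18.8% of all genes tested. Ramp2, an accessory protein of the adrenomedullin receptor in endothelium, had signals of 13.0 and 2.0 and RNA of 15.61 and 12.82 CPM in sham and 25.64 CPM after the lesion (log2 fold change 0.85, SE 0.17, edgeR adjusted p = 0.020). Ikbip had signals of 12.5 and 2.0 and RNA of 18 and 18.58 CPM in sham and 33.56 CPM after the lesion (log2 fold change 0.88, SE 0.12, edgeR adjusted p = 0.0098). Spg11, which serves the recycling of lysosomes and is mutated in spastic paraplegia, had the highest sham signal of the 12, 34.27, and 6.45 after the lesion. The remaining genes were Gm11186, Gm33035, Gm3411, Fam210a, Epb41l4aos and Zw10, with 8.5 to 17.0 in sham and 1.0 to 3.0 after the lesion. In 11 of the 12 falls, all but that at Spg11, every value was a multiple of 0.5 in all 3 columns.

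**Figure D3:**
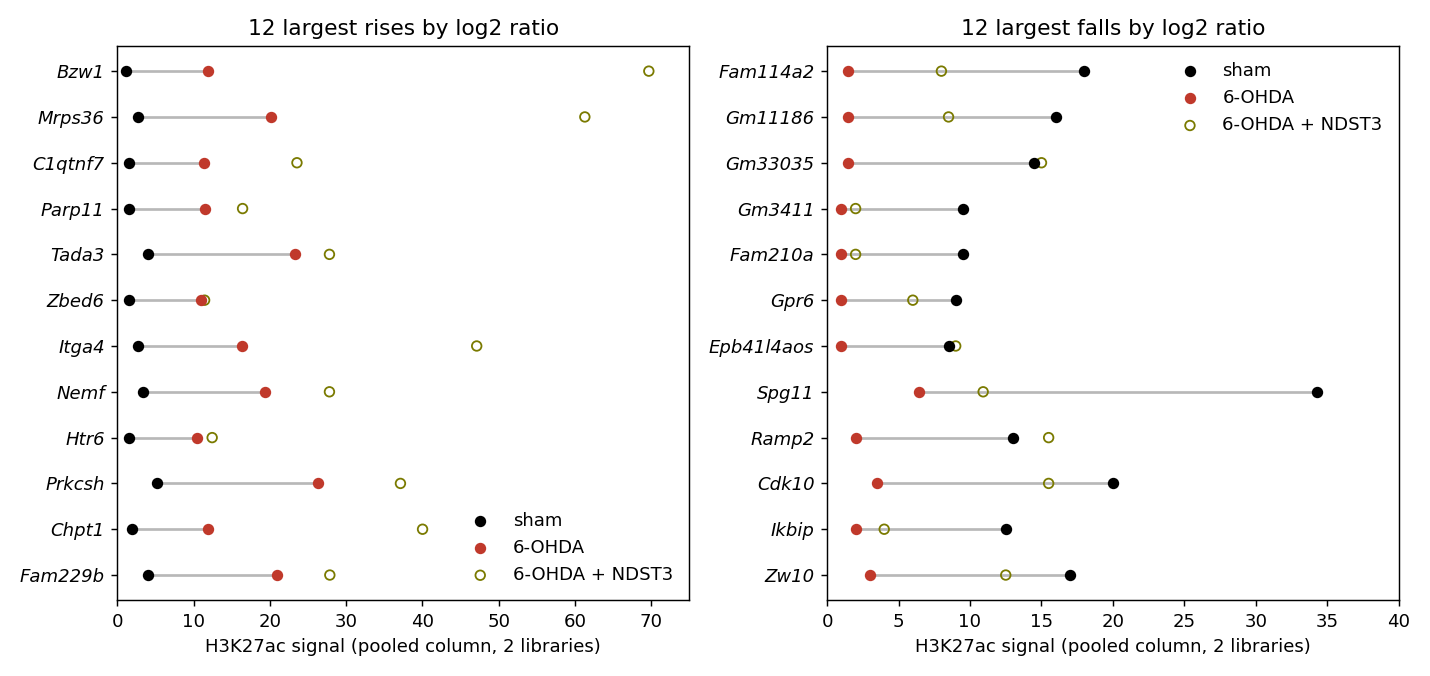
H3K27ac signal of the 12 regions with the largest rise (left) and the 12 with the largest fall (right) by log2 ratio, with sham in black, the 6-OHDA-induced PD model in red and the NDST3-treated PD model as open circles. Rises ran from sham values of 1.17 to 5.15 and falls to lesion values of 1.0 to 6.45.

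Ranked by difference in signal instead, regions well above the background led. Hdhd3 had 59.36 in sham and 101.0 after the lesion over 294 bases, and Lrrc58 31.7 and 66.8 over 276 bases. Nt5c3, a pyrimidine nucleotidase, had 15.42 and 49.15, Rfx3, a transcription factor of cilia genes, 38.93 and 71.75, Gm14023 37.99 and 69.05, and Fsbp 24.9 and 55.85. RNA of Lrrc58 was 154.6 and 145.1 CPM in sham and 218.5 CPM after the lesion (log2 fold change 0.54, SE 0.12, edgeR adjusted p = 0.027). That of Rfx3 was 16.41 and 18.89 CPM against 30.67 CPM (log2 fold change 0.80, SE 0.15, edgeR adjusted p = 0.017). Among the falls Wwc2 had 53.83 and 16.4, Trappc2l 47.81 and 15.4, the zinc finger gene Zfp970 45.34 and 13.4, Osbpl8 54.84 and 23.85, Gpr19 47.77 and 17.9 and Slc22a4 70.43 and 40.75. Wwc2, a regulator of Hippo signalling, had higher RNA after the lesion, 60.26 CPM against 47.61 and 46.52 CPM in sham (log2 fold change 0.36, SE 0.10, edgeR adjusted p = 0.047).

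Separate regions of 1 gene often went different ways. Of 3000 genes with 2 or more regions, 448 had a raised region, and in 275 of these all regions were higher after the lesion, while in 170 another region was lower. Of 260 with a lowered region, all regions were lower in 132. At least 2 regions were raised in 53 genes and lowered in 22, and 12 genes had regions of both kinds. Over all 11326 regions 6555 (57.88%) were higher and 4724 lower, with 7.77% raised and 4.52% lowered at 2-fold. Whether regions of 1 gene moved together more often than unrelated regions was not tested. The following examples were chosen after their values were seen. Zfp51, a zinc finger gene, had 3 raised regions of 100 bases centred at -272, -131 and 78, with 10.05, 7.94 and 12.1 in sham and 24.6, 20.15 and 25.85 after the lesion. Cep350, a centrosome protein, also had 3, at 1.68, 12.26 and 7.43 in sham and 4.95, 34.0 and 28.55 after the lesion. At Rtl6 both regions were lowered, from 25.15 to 8.45 and from 15.66 to 4.95, and its RNA was 69.7 and 75.82 CPM in sham and 45.68 CPM after the lesion (log2 fold change -0.67, SE 0.12, edgeR adjusted p = 0.016).

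Gene lists were read as counts of regions against the shares over all regions, 7.77% raised and 4.52% lowered, without a test. Among transmitter receptor genes 7 of 34 regions were raised (20.6%) and none was lowered, with a median log2 ratio of 0.24, or 0.13 at the same total. Gabra5, a GABA-A receptor subunit of extrasynaptic receptors, had 0.31 in sham, 6.45 after the lesion and 27.09 with NDST3, a log2 ratio of 2.51 that was left out of the ranking above because the sham value was under 1. Grin1, the obligate NMDA receptor subunit, had 3.94, 11.4 and 54.15, and Gabrg1 had 8.81, 32.8 and 48.89. Htr6, Htr4 and Grik1 were also raised. Their RNA went the other way where it passed the test. That of Grin1 was 339.6 and 428.5 CPM in sham and 128.0 CPM after the lesion (log2 fold change -1.59, SE 0.21, edgeR adjusted p = 0.0090). RNA of Htr4 had a log2 fold change of -2.23 (edgeR adjusted p = 0.0090), of Gabra5 -0.90 (edgeR adjusted p = 0.024) and of Grik1 -0.75 (edgeR adjusted p = 0.047). Of the 75 genes of this list tested, RNA was lower for 51 and higher for 1, against 17.1% and 18.8% of all genes tested.

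Among ion channel genes 3 of 42 regions were raised, at Kcnh7, Kcna6 and Kcnc2, and 2 were lowered, at Kcnip4 and Kcnt2. Kcnip4, an auxiliary subunit of A-type potassium channels, had 34.13 in sham and 12.95 after the lesion, and Kcnt2, a sodium-activated potassium channel, 27.63 and 10.45. RNA of Kcnh7 had a log2 fold change of -1.93 (edgeR adjusted p = 0.027), and that of the other 4 did not pass the test. Of 12 pan-neuronal regions 1 was lowered, at Syt1, the calcium sensor of vesicle release, with 14.11 and 6.45. RNA of Syt1 was 708.9 and 675.4 CPM in sham and 356.3 CPM after the lesion (log2 fold change -0.96, SE 0.27, edgeR adjusted p = 0.046). RNA of all 22 pan-neuronal genes was lower by the test, against 17.1% of all genes tested.

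Immune lists had few regions. Of 9 regions at interferon and antigen presentation genes 2 were raised, with a median log2 ratio of 0.51, or 0.40 at the same total, where 1 was raised. Ifit1, an antiviral protein that binds foreign RNA, had 11.56 in sham and 28.35 after the lesion, and RNA of 5.203 and 4.244 CPM in sham and 12.37 CPM after the lesion (log2 fold change 1.39, SE 0.26, edgeR adjusted p = 0.017). Ifit3 had 4.2 and 9.65, with RNA of 23.14 and 22.58 CPM against 44.55 CPM (log2 fold change 0.96, SE 0.15, edgeR adjusted p = 0.011). Cd63, a tetraspanin of late endosomes, was the raised region among 6 of disease-associated phagocytes, with 13.36 and 30.05, and its RNA had a log2 fold change of 2.53 (SE 0.27, edgeR adjusted p = 0.0082). RNA of all 18 interferon genes and all 19 phagocyte genes was higher by the test, against 18.8% of all genes tested. Inflammatory signalling genes had 14 regions and none past 2-fold, though RNA of all 25 tested was higher. Immediate early genes had a median log2 ratio of -0.38 over 10 regions, or -0.49 at the same total. The AP-1 subunit gene Junb had 35.25 and 13.9, while its RNA was 12.83 and 12.64 CPM in sham and 54.0 CPM after the lesion (log2 fold change 2.08, SE 0.19, edgeR adjusted p = 0.0082).

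Genes of lysine acetylation, which write, erase or read marks such as H3K27ac, had 5 raised (12.5%) and 1 lowered of 40 regions, with a median of -0.07, below that of all regions. Among erasers, Hdac5, a class IIa deacetylase, had 9.96 in sham and 29.55 after the lesion, with RNA of 189.1 and 200.7 CPM against 131.7 CPM (log2 fold change -0.57, SE 0.11, edgeR adjusted p = 0.018). The sirtuin gene Sirt6 had 5.52 and 17.65 and Hdac8 2.79 and 8.7. Among writers, Kat6a had 8.37 and 23.6 while Kat2b had 13.12 and 5.45, with higher RNA of Kat2b (log2 fold change 0.42, edgeR adjusted p = 0.033). Brd1, a reader that directs acetyltransferase complexes, had 7.05 and 15.4. RNA of the remaining 4 did not pass the test.

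Among genes of inherited Parkinson disease 1 of 12 regions was raised and 1 lowered, both at genes of clathrin uncoating in nerve endings. Synj1, synaptojanin, had 10.76 in sham and 28.05 after the lesion, and Dnajc6, auxilin, 12.62 and 5.45. RNA of both was lower, for Synj1 356.1 and 389.5 CPM in sham and 133.7 CPM after the lesion (log2 fold change -1.48, SE 0.13, edgeR adjusted p = 0.0082), and for Dnajc6 319.8 and 347.9 CPM against 134.3 CPM (log2 fold change -1.31, SE 0.14, edgeR adjusted p = 0.0082). Lrrk2, named here after its values were seen, had 33.73 and 22.35, 21.13 and 16.9, and 22.16 and 13.9 at its 3 regions.

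Oxidative phosphorylation genes had 5 raised (5.1%) and 8 lowered (8.16%) of 98 regions, against 7.77% and 4.52% of all regions. At the same total 4 were raised and 9 lowered. The list median was 0.15 (0.04 at the same total), near the 0.13 of all regions. The lowest ratios were at Cox5b (8.5 and 2.5), Sdhb (20.14 and 6.95) and Atp5mg (14.65 and 4.95), and the highest at Ndufb11 (4.63 and 16.65) and Ndufa2 (7.83 and 26.05). At Cox5b every value was a multiple of 0.5. Ndufs1, the largest subunit of complex I, was raised, with 10.63 and 28.55, while its RNA was 190.2 and 199.1 CPM in sham and 134.5 CPM after the lesion (log2 fold change -0.53, SE 0.12, edgeR adjusted p = 0.024). It was the 1 gene among the 13 called whose RNA passed the test. Cytosolic ribosomal protein genes had 5 raised and 3 lowered of 75 regions and a median of -0.01, or -0.13 at the same total, where 5 were raised and 6 lowered. RNA was higher by the test for 74 of 91 such genes, against 18.8% of all genes tested. It was higher at the raised genes Rps13 (2.39 and 11.4), Rps6 (7.81 and 27.05), Rpl35a (12.07 and 32.8), Rpl4 (7.03 and 17.35) and Rps7 (4.52 and 11.45), and also at the lowered gene Rps15a (23.63 and 8.95). RNA of another lowered gene, Rpl29 (12.11 and 5.45), was 8.465 and 53.72 CPM in sham, 13.63 CPM after the lesion and 66.51 and 8.059 CPM with NDST3, so that replicates differed more than groups (edgeR adjusted p = 0.58). Proteasome subunit genes had the highest median of the lists with over 20 regions, 0.43, or 0.33 at the same total, with 3 raised and none lowered of 31 regions. These were Psma7 (1.06 and 3.45), whose RNA did not pass the test, and both regions of Psmb11, the subunit of the thymus (9.56 and 25.1, 5.94 and 14.9), whose RNA was not analysed here.

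Zinc finger genes, many of them repressors of transposable elements, were the largest list and lay close to the whole, with 30 raised (7.19%) and 17 lowered (4.08%) of 417 regions. The largest ratios were at Zfp772 (1.51 and 8.45), Zfp960 (4.03 and 15.9) and Zfp280c (2.65 and 10.95), and the lowest at the second region of Zfp970 (7.5 and 1.0) and at Zfp382 (35.22 and 7.95). RNA of Zfp382 was 23.08 and 29.26 CPM in sham and 13.73 CPM after the lesion (log2 fold change -0.93, SE 0.21, edgeR adjusted p = 0.026). Histone genes had 3 raised and 1 lowered of 32 regions, from the lowered H2bc14 (10.5 and 2.5) to the raised H2bc3 (2.09 and 9.95). Reads and signal of histone genes, zinc finger genes and ribosomal protein genes may be shared with close copies, and the counting does not say how these were treated. Genes of the NRF2 response, the defence against oxidants, had 1 of 26 regions past 2-fold, lowered at Gpx4 (4.5 and 0.5), and a median of 0.06, which was -0.05 at the same total. Developmental transcription factors had 14 regions, with Foxn2 and Pou3f2 raised and Foxred1, an assembly factor of complex I whose symbol matched the pattern, lowered. The lesion value of Gpx4 was the usual lowest value, 0.5. Every value of the lowered regions at Gpx4, H2bc14 and Foxred1, and of the second Zfp970 region, was a multiple of 0.5.

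**Figure D4:**
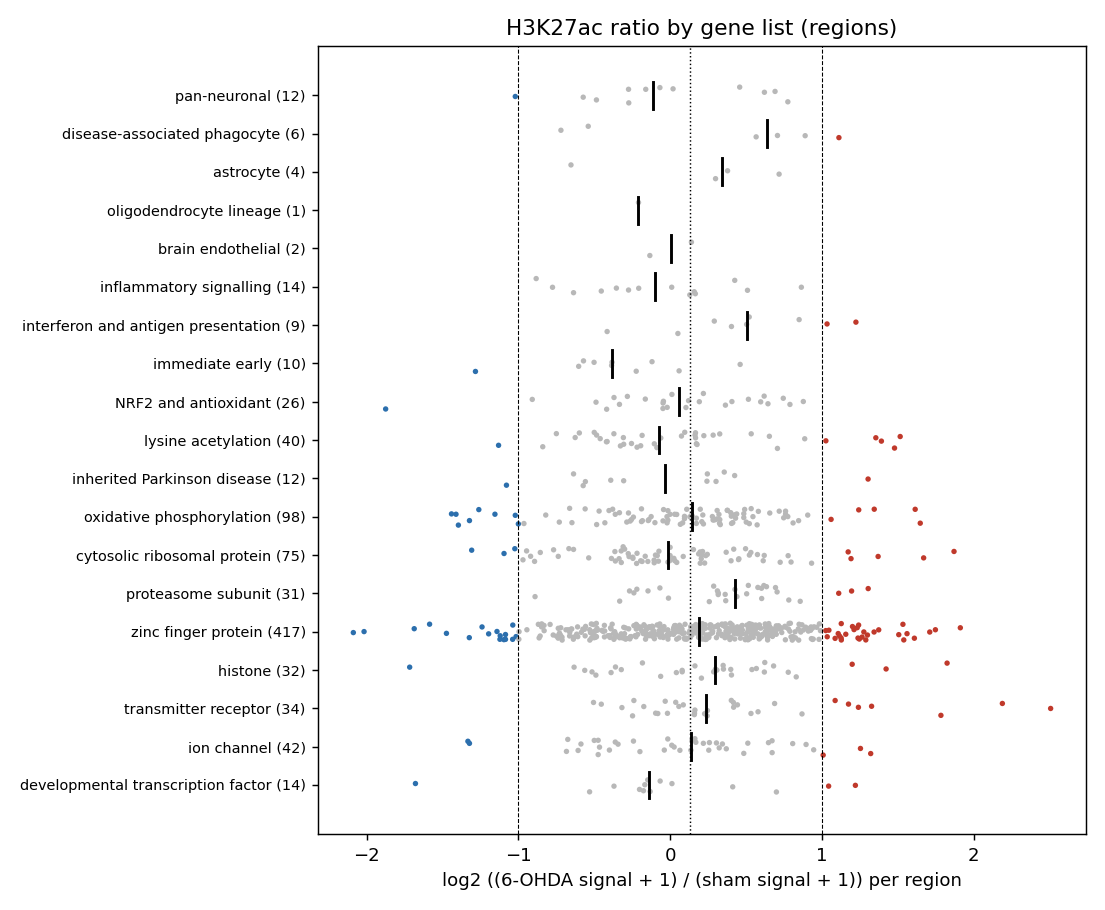
H3K27ac log2 ratio, 6-OHDA-induced PD model against sham, of each region in the gene lists, with the number of regions in brackets. Black bars are list medians, the dotted line is the median of all regions (0.13), dashed lines are 2-fold, and red and blue points are raised and lowered regions; transmitter receptors had 7 of 34 past the upper line.

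Of the genes the study turns on, Th had no region. Ndst3, read here as the gene of the mouse itself, encodes an N-deacetylase and N-sulfotransferase of heparan sulfate and is the counterpart of the gene given as treatment. It had 1 region with 14.1 in sham, 6.95 after the lesion and 13.4 in the NDST3-treated PD model, a log2 ratio of -0.93 that fell short of 2-fold. Its RNA was 14.06 and 21.03 CPM in sham, 7.958 CPM after the lesion and 23.28 and 13.49 CPM with NDST3 (log2 fold change -1.14, SE 0.43, edgeR adjusted p = 0.097). Whether reads of the injected gene counted toward these values was not tested. Ncoa7, a nuclear receptor coactivator with an oxidation resistance domain, had 5 regions at 2 start sites, none past 2-fold. Their signals were 41.21, 31.35, 26.67, 25.13 and 28.17 in sham, and 28.85, 29.1, 23.35, 28.35 and 41.25 after the lesion. The region at position 84 had the lowest log2 ratio, -0.50, and that at position -354 the highest, 0.53. RNA of Ncoa7 was 78.46 and 94.47 CPM in sham, 36.03 CPM after the lesion and 79.36 and 80.6 CPM with NDST3 (log2 fold change -1.26, SE 0.15, edgeR adjusted p = 0.0085).

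Chromosome X had the highest share of raised regions of the 20 chromosomes, 43 of 290 or 14.8%, against 7.59% over the autosomes and 4.99% to 11.1% on single autosomes. Lowered regions were 4.14% and 4.53%. At the same total the shares of raised regions were 12.1% and 5.49%. X-linked regions carried less signal, with medians of 10.585 in sham and 12.65 after the lesion against 15.08 and 16.4 on the autosomes. Within the lowest quintile of signal, 21.2% of X-linked and 13.7% of autosomal regions were raised, and within the next quintile 13.9% and 9.65%. In quintiles 3, 4 and 5 the X had 6 of 65, 5 of 32 and none of 15. The median log2 ratio was 0.17 on the X and 0.13 on the autosomes. Chromosomes were compared after the data were seen, and without a test.

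The following X-linked genes were chosen after their values were seen. Xist, the RNA that silences 1 X chromosome in female cells, had 6.97 in sham, 23.55 after the lesion and 51.03 with NDST3 at position -795. Mid1, a ubiquitin ligase gene, had 2 raised regions, with 4.2 and 3.39 in sham and 16.6 and 17.1 after the lesion, and its RNA was 14.43 and 15.79 CPM in sham and 26.2 CPM after the lesion (log2 fold change 0.79, SE 0.14, edgeR adjusted p = 0.015). Of 28 X-linked genes whose strongest region was raised and whose RNA was tested, RNA was higher for 6 and lower for 11, with a median log2 fold change of -0.32. Those are 21.4% and 39.3%, beside 17.9% higher and 28.6% lower among all 196 X-linked genes with a region. The study's methods describe female mice. In all 5 RNA-seq libraries the 4 Y-linked genes Ddx3y, Eif2s3y, Kdm5d and Uty were nevertheless read at 11.93 to 90.06 CPM. Y-linked H3K27ac was not analysed here, and whether the sex of the animals differed between the CUT&RUN pools was not tested.

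RNA of genes with raised or lowered H3K27ac was compared with that of all genes with a region. The RNA-seq comparison had 2 sham libraries and 1 library of the 6-OHDA-induced PD model, which was assumed to vary like the others, and totals of 51003699 to 70533326 counts per library. Over 19300 genes RNA was higher for 3625 (18.8%) and lower for 3291 (17.1%) at an adjusted p under 0.05 in edgeR. Leaving out either sham library left no call in either direction, with 7499 and 6284 genes at an unadjusted p under 0.05. Each gene was represented by its region of highest mean signal, and 6705 of 7204 genes were matched to RNA. Among 491 genes with raised H3K27ac RNA was higher for 96 (19.6%) and lower for 87 (17.7%). Among 285 with lowered H3K27ac it was higher for 47 (16.5%) and lower for 53 (18.6%). All 6705 genes had 18.1% higher and 20.8% lower. The median log2 fold change of RNA was -0.04, -0.03 and -0.05 in these groups. Across the 6705 genes, which are not independent replicates, the H3K27ac ratio and the RNA change had a Pearson r of 0.01 and a Spearman rho of 0.00.

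Read from the RNA side, the median H3K27ac log2 ratio was 0.12 at 1215 genes with higher RNA, 0.09 at 1393 with lower RNA and 0.12 at 4097 without a call, and raised regions were 7.9%, 6.25% and 7.52% of them. The presence of a region did follow RNA. Of the quintile of genes with the lowest sham FPKM, a level per length, 9.2% had a region, and of the highest quintile 48.1%. The height of the signal had sham medians of 15.57 and 16.89 in these quintiles and a Spearman rho of 0.04 between sham signal and sham FPKM across genes.

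**Figure D5:**
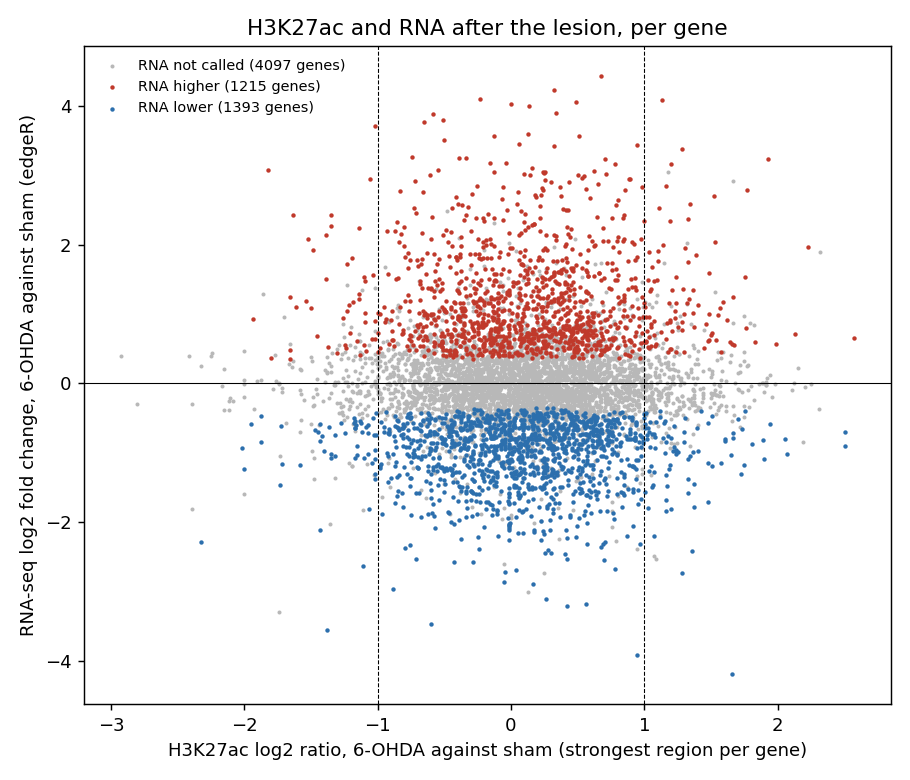
H3K27ac log2 ratio (x axis, 2-fold as dashed lines) and RNA-seq log2 fold change (y axis), both 6-OHDA-induced PD model against sham, for 6705 genes represented by their region of highest mean signal. Red and blue points are the 1215 and 1393 genes with higher and lower RNA in edgeR, and they spread over the same range of H3K27ac ratios (Pearson r 0.01).

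Genes past 2-fold in H3K27ac with the largest RNA changes were found in all 4 combinations of direction, taking any region of a gene past 2-fold. For Cenpa, Spata32, BC030500, Fanci, Neu2 and Slc18a1 the strongest region of the gene was within 2-fold. With both higher, Apobec1, a cytidine deaminase of myeloid cells, had signals of 14.32 and 32.55 and RNA of 5.63 and 2.621 CPM in sham and 69.96 CPM after the lesion (log2 fold change 4.09, SE 0.55, edgeR adjusted p = 0.0091). Cenpa, the centromeric histone of dividing cells, Arhgap25, a Rac regulator of leukocytes, and Slco1a5, a transporter, followed with log2 fold changes of 4.004, 3.241 and 3.167. Their signals were 10.56 and 25.35, 2.07 and 10.7, and 2.02 and 5.95.

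With H3K27ac raised and RNA lower, Cartpt, a neuropeptide precursor, had signals of 2.7 and 10.65 and RNA of 117.0 and 71.04 CPM in sham and 5.131 CPM after the lesion (log2 fold change -4.19, SE 0.53, edgeR adjusted p = 0.0087). Plcxd2 had 9.15 and 25.05 with a log2 fold change of -2.42, and Spata32, Gm4349 and BC030500 ranged from -2.86 to -2.37. The 2 regions of BC030500 went opposite ways, with 13.07 and 27.35 at position 650 and 30.11 and 16.9 at its strongest region, position 296. The strongest region of Spata32 was slightly lower after the lesion, with 17.6 and 16.9. With H3K27ac lowered and RNA higher, Col4a1, a collagen of vascular basement membranes, had 22.17 and 6.45 and RNA of 66.28 and 41.19 CPM in sham and 289.7 CPM after the lesion (log2 fold change 2.43, SE 0.31, edgeR adjusted p = 0.0089). Rbm47, Ecrg4, Mcoln2 and Fanci had log2 fold changes from 2.53 to 3.71. With both lower, Oprm1, the mu opioid receptor, had 22.61 and 9.95, 24.88 with NDST3, and RNA of 3.495 and 5.142 CPM in sham and 0.697 CPM after the lesion (log2 fold change -2.63, SE 0.40, edgeR adjusted p = 0.011). B230312C02Rik, Gpr6, Neu2 and Slc18a1, a vesicular monoamine transporter of endocrine cells, ranged from -3.56 to -2.11. The strongest regions of Neu2 (12.58 and 23.85) and Slc18a1 (19.5 and 22.1) were higher after the lesion, unlike the lowered regions that placed these genes here.

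Chromatin accessibility, measured by ATAC-seq with 1 library a group and so without a test, could be set beside few regions. The paper describes its ATAC-seq profiles as those of dopaminergic neurons, and its methods do not say how such neurons were separated. Of 11326 H3K27ac regions 379 (3.35%) shared at least 1 base with 1 of 375 ATAC-seq regions. Over all 3537 ATAC-seq regions 162 (4.58%) were raised at least 2-fold after the lesion and 179 (5.06%) lowered, with a median log2 ratio of 0.11. Over the 375 shared ATAC-seq regions the median was 0.10, with 218 higher, 157 lower, 13 raised and 11 lowered. At raised H3K27ac regions 21 ATAC-seq regions had a median of 0.21, with 14 higher and 7 lower. At lowered ones 20 had a median of 0.14, with 12 higher and 8 lower. Of the 21 at raised H3K27ac regions, 3 ATAC-seq regions were raised, at Chad, Klhl38 and Lhpp, and 1 was lowered, at Irak3, all named after their values were seen, and none of the 20 at lowered H3K27ac regions was past 2-fold. At Chad, a cartilage matrix protein gene, H3K27ac was 2.52 in sham and 6.45 after the lesion and ATAC-seq 5.4 and 19.5. At Irak3, a brake on Toll-like receptor signalling, H3K27ac was 1.51 and 5.45 while ATAC-seq was 19.2 and 3.5.

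Genes with a region had GC-rich, TATA-poor promoters in either direction of the H3K27ac ratio. Among genes with 1 RefSeq start, the median G and C content was 61.0% at 364 raised, 61.8% at 192 lowered and 61.3% at 4376 promoters of all genes with a region, against 52.3% at all 22862 promoters. The GC box was found in 62.1% of raised, 63.0% of lowered and 65.6% of all promoters with a region, and in 35.2% of all promoters. The ETS site, marked above in Bzw1, was in 20.9%, 20.3%, 20.2% and 9.12% in the same order. The cyclic AMP response element, marked in Gpr6, was in 3.3%, 3.65%, 4.0% and 1.85%, and the CCAAT box in 35.7%, 37.5%, 37.8% and 38.2%. The E-box was in 8.79% of raised, 13.5% of lowered (26 of 192) and 10.1% of promoters with a region, and in 7.12% of all. The AP-1 site was in 4.4%, 3.12%, 4.32% and 7.98%, and the TATA box in 3.85%, 5.73%, 6.26% and 14.8%.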

How the data were processed

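CUT&RUN for H3K27ac (2 libraries per group), RNA-seq (2 sham, 1 of the 6-OHDA-induced PD model, 2 of the NDST3-treated PD model) and ATAC-seq (1 per group) were analysed. The authors deposited CUT&RUN and ATAC-seq as a tag signal per region and group, scaled in a way not given in the sources used here, with both CUT&RUN libraries of a group in 1 column. For RNA-seq the authors trimmed reads, aligned them to mm10 with HISAT2, and deposited a read count and FPKM per gene from StringTie.

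Signal ratios were taken after adding a pseudocount of 1 in regions with at least 1 in any group, and called at 2-fold. Positions from the start site are those of the table. Its coordinates were printed as deposited. The labels name mm10, but the start sites implied by 9081 regions lay within 100 bases of a GRCm38 start for 289, and scaffold names were those of GRCm39, so no sequence was read by coordinate. Promoters were matched by gene.

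Counts were tested with edgeR 4.0.16 in R 4.3.3 (TMM, default filter, quasi-likelihood test over all 5 libraries, Benjamini-Hochberg adjustment, adjusted p under 0.05), and SE is the size of the log2 fold change over the square root of F. RNA-seq replicates may be technical, since nothing says they are separate animals. DESeq2 1.42.0 was an alternative. ATAC-seq regions counted as shared from 1 base of overlap, and 45 with no sham value were left out. Other steps used Python 3.11.15, numpy 2.4.6, pandas 2.3.3 and matplotlib 3.10.9.

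The comparison and gene lists were chosen with earlier results of these data known. Named genes were the 12 largest rises and falls by ratio with a signal of at least 1 in both columns, the 6 largest each way by difference, list members past 2-fold, Th, Ndst3 and Ncoa7, and the 5 genes with the largest RNA change in each combination of directions. No column was at 0, so a rule for such regions named none. A few genes that these rules pick are not reported here.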

Additional observations from a re-analysis of the deposited data

How the results depend on the processing

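No H3K27ac value has a replicate, so its stability against other libraries could not be tested, and signal near the background limits the ratios. Against 880 raised and 512 lowered regions, a pseudocount of 5 gave 297 and 172, a 1.5-fold threshold 2515 and 1458, and 1 region per gene 534 and 315. Other filters, a pseudocount of 0.1 (1096 and 618), the same total (641 and 650) and centring (595 and 700) stayed within 1.5 times. The median log2 ratio of 0.13 was 0.1036 with a pseudocount of 5, 0.0239 at the same total and 0.1176 with 1 region per gene. Of the RNA-seq counts, 3625 higher and 3291 lower, leaving out 1 library gave 0 to 3718 higher and 0 to 3422 lower, with 0 without either sham replicate, where 2 groups hold a single library. DESeq2 called 3663 higher and 3840 lower. The replicate block gave 1008 and 788. Same-numbered sham and NDST3-treated libraries deviated in opposite ways (r = -0.416 over 19300 genes, 2 pairs), so the numbers were not taken as pairing. A crossed block, added after seeing the data, gave 3845 and 3599 and turned Rpl29 from -1.193 to 0.787 on the log2 scale. At 2-fold in RNA without a p, the shares of 19.6% and 18.6% were 11.6% and 11.9%, against 10.3% and 10.0% of all genes with a region. At the same total 13 of 176 named H3K27ac ratios crossed 2-fold, with a pseudocount of 5 79 did, and none changed sign while called.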
